A study of Homo sapiens with 12 samples.

Results

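The TRIM28 knockdown in LNCaP cells, an androgen-sensitive human prostate cancer line, was compared with its own control in 6 of the 12 RNA-seq libraries of the series. The 6 libraries were the count columns named NC_TRIM28 (3 controls) and SI_TRIM28 (3 knockdowns), taken with 1 row per gene symbol. The other 6 libraries hold a FOXA1 knockdown and its control and were used only where a difference between the knockdowns was tested. Per the series design, each group had 3 biological replicates of one cell line, the controls received control shRNA and the knockdown arm shRNA-TRIM28, and poly(A) RNA was sequenced. No drug, hormone treatment or time after knockdown is recorded in the labels, and the number of hairpins, their sequences and whether cells were pooled or cloned are not stated there either. The titles of the knockdown arm read SH control, the sample labels spell the line LACAP, and what SI stands for is not given. The genotype labels carry a different number after TRIM in each replicate of a group, so groups were taken from the titles of the controls and the treatment labels of the knockdowns.

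TRIM28, also called KAP1 or TIF1-beta, is a corepressor that has no sequence-specific DNA binding of its own. KRAB zinc finger proteins bring it to DNA, where it gathers the histone H3 lysine methyltransferase SETDB1, HP1 proteins and the NuRD complex, and it is best known for silencing endogenous retroviruses and for keeping imprinted regions and zinc finger gene clusters in heterochromatin. It also binds MDM2 and takes part in the turnover of p53, and in prostate cancer cells it is a partner of TRIM24 in androgen signalling.

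The 6 libraries held 12256092 to 14029242 counts, with 24650 to 27031 genes detected and 3.51% to 4.85% of counts from mitochondrial genes, and all carry batch label 1. Levels are CPM, counts scaled to a common library size and adjusted by TMM factors. Changes are log2 fold changes of knockdown over control, and a gene is called, or said to rise or fall, at an adjusted p under 0.05 by edgeR's quasi-likelihood test over all 14981 genes tested. Of these, 3993 genes (26.7%) were called, 1994 up (13.3%) and 1999 down (13.3%). A change of 2-fold or more was reached by 488 of the rises and 190 of the falls, 678 genes in all. The median size of a called change was 0.56 on the log2 scale. With library size alone as the scaling, 63.4% of the calls were up, against 49.9% with TMM.

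Knockdown replicate 3 stood apart from the other libraries. The Pearson correlation of its log2 CPM with knockdown replicates 1 and 2 was 0.968 and 0.973. The chi-square of its counts against theirs, divided by the degrees of freedom, was 25.8 and 23.3, against 4.04 between replicates 1 and 2. Without it 6966 of 15475 genes were called, 3333 up (21.5%) and 3633 down (23.5%), and 3940 of the 3993 genes called with all 6 libraries were among them. Leaving out control replicate 1, 2 or 3 instead gave 2019, 1817 and 2154 calls, and leaving out knockdown replicate 1 or 2 gave 2986 and 2488. Calls held in all 6 of these fits for 1538 genes, 751 up and 787 down, and a gene below is said to hold when it was one of them. Many gene groups are given with all 6 libraries and again without knockdown replicate 3. Many named genes were chosen for a small p or for groups that did not overlap. Statements that their libraries lie apart are therefore a description, and the share of all tested genes without overlap is not reported here.

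TRIM28 itself (ENSG00000130726, GRCh38 chr19:58544064-58550722, plus strand) stood at 396, 413 and 404 CPM in the controls and 129, 115 and 56.6 CPM in knockdown replicates 1, 2 and 3. All 3 knockdown libraries lay below every control, and replicate 3 was the lowest, at less TRIM28 than either other knockdown library. The change was -2.01 (SE 0.28, adjusted p = 0.00305 by edgeR), it held, and it was -1.73 without replicate 3. TRIM24, the bromodomain coregulator that TRIM28 binds, was at 91.9, 93.6 and 98.8 CPM in the controls and 85.8, 80.1 and 90.7 CPM in knockdown replicates 1, 2 and 3. Its groups did not overlap, yet the difference was small and was not called (-0.15, adjusted p = 0.229). TRIM33, another TIF1 family member that works with SMAD proteins, was at 125, 125 and 128 CPM in the controls and 113, 112 and 143 CPM in knockdown replicates 1, 2 and 3. Replicates 1 and 2 lay below the controls and replicate 3 above them, and the gene was not called (-0.04).

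Among 44 tested members of the TIF1 family and the KRAB repressor partners, 4 rose and 7 fell, with a median of 0.00, close to the all-gene shares above. SETDB1, the methyltransferase that TRIM28 recruits, fell by 0.42 from 49, 45.6 and 48.2 to 36, 33.4 and 37 CPM, which did not pass once control replicate 1 was left out (adjusted p = 0.0501). SUMO3 and SUMO2, the small modifiers that TRIM28 conjugates to itself, fell (-0.51 and -0.50), and MTA1, a NuRD subunit, fell by 0.48. DNMT3A, a de novo DNA methyltransferase, rose by 0.88 from 27.4, 29 and 29.1 to 52.4, 57.7 and 47.3 CPM, and H3-3B, a gene for the replacement histone H3.3, rose by 0.50. The calls of SUMO3, SUMO2, MTA1, DNMT3A and H3-3B held. In these 5 genes the 3 knockdown libraries lay on the same side of all 3 controls. Without replicate 3, 12 partners rose and 17 fell.

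**Figure D1:**
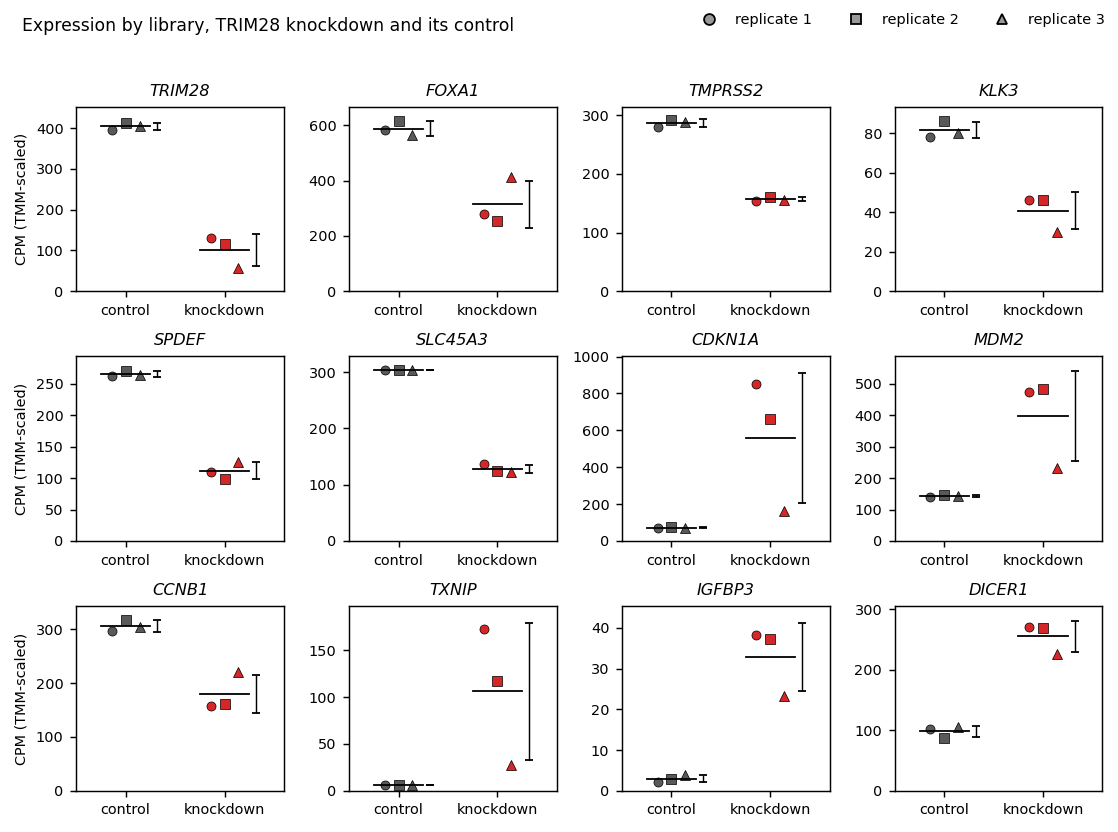
Expression of 12 genes named in the text, in CPM on linear axes that start at 0, with 1 point per library (control and knockdown replicates 1, 2 and 3), a line at each group mean and a bar of 1 SD (n = 3). TRIM28 is lowest in knockdown replicate 3, CDKN1A and TXNIP are high in replicates 1 and 2 and much less so in replicate 3, and SLC45A3 and KLK3 lie below all controls in each knockdown library.

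The pioneer factor FOXA1 and many androgen-induced genes were lower in the TRIM28 knockdown. FOXA1, which opens chromatin in luminal cells, was at 583, 616 and 563 CPM in the controls and 278, 253 and 412 CPM in knockdown replicates 1, 2 and 3. Every knockdown library lay below every control, replicate 3 nearest to them (-0.90, SE 0.17, adjusted p = 0.0055 by edgeR; held).

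Of 37 tested androgen-induced genes, 19 fell and 1 rose (median -0.30), and without replicate 3 it was 23 and 3. The medians were -0.41, -0.26 and -0.38 in knockdown replicates 1, 2 and 3, so this group moved as far in replicate 3 as in the other libraries. SLC45A3, which encodes the prostate membrane protein prostein, was at 303, 303 and 303 CPM in the controls and 136, 125 and 123 CPM in knockdown replicates 1, 2 and 3, and the groups were well apart (-1.24, SE 0.08). KLK3, the prostate-specific antigen gene, was at 78.2, 86.2 and 80.2 CPM in the controls and 46.2, 46 and 30 CPM in knockdown replicates 1, 2 and 3. It was lowest in replicate 3 and below the controls in all 3 knockdown libraries (-1.0, SE 0.15, adjusted p = 0.00196). KLK2, the neighbouring kallikrein, was at 396, 400.0 and 385 CPM in the controls and 176, 191 and 142 CPM in the knockdown (-1.22), and the membrane protease TMPRSS2 at 280.0, 292 and 289.5 and 154, 160.1 and 156 CPM (-0.87). All of these calls held, and over the fits that each leave out 1 library 12 to 23 of the androgen-induced genes fell.

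Luminal lineage genes were mixed: of 32 tested, 10 fell and 3 rose (median -0.21), and without replicate 3 it was 13 and 4. SPDEF, an ETS factor of secretory epithelium, fell by 1.25 from 262, 271 and 264 to 109.9, 98.8 and 126 CPM, CLDN3, a tight junction claudin, fell by 0.93 and HOXB13, a prostate homeobox factor, fell by 0.40. CDH1, the epithelial cadherin, rose by 0.51 from 355, 386 and 371 to 529.7, 519 and 529.9 CPM, and SOX9, a factor of progenitor and basal-like cells, rose by 1.38 from 4.83, 5.26 and 5.35 to 15.7, 14.6 and 9.74 CPM. These 5 calls held, and in each gene the knockdown libraries lay to one side of all controls. The summed level of 11 luminal markers was 4469 to 4674 CPM in the controls and 2992, 3073 and 2786 CPM in the knockdown libraries. In a culture measured in bulk, fewer cells of a kind and less RNA per cell cannot be told apart.

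Genes listed here as androgen-repressed did not, as a group, move opposite to the induced ones. Their response to androgen was not measured in these libraries. Of 19 tested, 7 fell and 2 rose, and without replicate 3 it was 10 and 3. HES6, a bHLH factor of neural differentiation, was at 48.2, 56 and 51.9 CPM in the controls and 20.5, 16.7 and 22.9 CPM in knockdown replicates 1, 2 and 3, and the aromatic amino acid decarboxylase gene DDC at 42.6, 44.8 and 44.6 CPM in the controls and 18, 19.8 and 23.4 CPM in knockdown replicates 1, 2 and 3. Both lay below the controls in every knockdown library (log2 fold changes -1.38 and -1.11). SLC43A1, an amino acid transporter gene whose place on this list is uncertain, fell by 1.09. The 2 that rose were IGFBP3, described with the insulin-like growth factor genes, and CCND1, the gene of cyclin D1. CCND1 was at 263, 299 and 265 CPM in the controls and 679.7, 697 and 412 CPM in knockdown replicates 1, 2 and 3, above the controls in each knockdown library and by the least in replicate 3 (1.11, held).

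Other large falls were in genes of several kinds. INPP4B, a phosphatase that removes a phosphate from phosphoinositides and restrains AKT, was at 45.4, 51.6 and 53.3 CPM in the controls and 17.5, 16.1 and 17.3 CPM in knockdown replicates 1, 2 and 3 (-1.56). KCNN2, a calcium-gated potassium channel gene, was at 200.5, 218 and 204 CPM in the controls and 93.8, 85.4 and 81.3 CPM in knockdown replicates 1, 2 and 3 (-1.26), and SPON2, a secreted matrix protein gene, at 139.6, 129.7 and 155 and 58.1, 53.3 and 53.5 CPM (-1.36). Their standard errors were 0.11, 0.09 and 0.10, and no knockdown library reached the lowest control. The prostate noncoding RNA PCA3 fell by 1.50, PRAC1, a small prostate and colon gene, fell by 1.49, the focal adhesion gene TNS4 fell by 1.93 and LENG9, of uncertain function, fell by 1.59. Among abundant genes, GDF15, a stress-induced TGF-beta family cytokine that p53 can induce, fell by 1.24 from 434, 576 and 444 to 188, 171 and 259 CPM, and C19orf48 fell by 1.10. All of these calls held.

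The p53 targets were the list with the largest share of rises: 26 of 44 tested members rose and 3 fell, with a median of 0.80 against 0.00 for all genes. Without replicate 3, 38 of 45 rose and 3 fell, and over the fits without 1 library 16 to 38 rose. Of 44 members, 39, 38 and 34 lay above the control mean in knockdown replicates 1, 2 and 3, but the median was 1.01 and 0.92 in the first pair and 0.31 in replicate 3. CDKN1A, which encodes the cyclin-dependent kinase inhibitor p21, was at 73.1, 73.6 and 69.4 CPM in the controls and 849, 662 and 165 CPM in knockdown replicates 1, 2 and 3. Every knockdown library lay above every control, and the 3 differed widely among themselves, replicate 3 being the lowest. The change was 2.96 (SE 0.67, adjusted p = 0.0363 by edgeR). The call was lost without control replicate 1, 2 or 3 (adjusted p = 0.0774, 0.1 and 0.119) and without knockdown replicate 1 or 2 (0.0502 and 0.0864), and it was 3.38 without replicate 3 (6.31e-17).

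Among the other p53 targets, 15 rises and 2 falls held in every such fit. GDF15, given above, is on this list and was one of the 3 that fell. TP53INP1 and ZMAT3, which both rose, were added beyond the naming rule. MDM2, the ubiquitin ligase of p53, was at 141, 145 and 142 CPM in the controls and 475, 484 and 231 CPM in knockdown replicates 1, 2 and 3 (1.48, SE 0.26). TP53INP1, a stress-response nuclear protein gene, was at 160.5, 141 and 166 CPM in the controls and 568, 592 and 306 CPM in knockdown replicates 1, 2 and 3 (1.65), and ZMAT3, an RNA-binding zinc finger gene, at 29, 31 and 29.7 CPM in the controls and 129.5, 124 and 58.9 CPM in knockdown replicates 1, 2 and 3 (1.80). In these 3 genes the knockdown libraries were all above the controls, and replicate 3 had the smallest rise. CYFIP2, a cytoskeletal regulator, showed the same order at 128, 115 and 72.9 CPM against 40.1, 45 and 41.1 CPM (1.32). TIGAR, a phosphatase that lowers glycolytic flux, rose by 1.77, the polo-like kinase PLK2 by 1.17 and PPM1D, the phosphatase that acts back on p53, by 0.91. The p53-induced noncoding RNA PINCR was at 0.288, 0.526 and 1.65 CPM in the controls and 9.25, 8.65 and 3.49 CPM in knockdown replicates 1, 2 and 3, low in every control and higher in every knockdown library, and rose by 3.14, or by 4.10 without control replicate 3.

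Genes of DNA replication and mitosis were lower. Of 44 tested S phase genes, 20 fell and 1 rose (median -0.53), and of 43 mitosis genes, 23 fell and none rose (median -0.62). Without replicate 3 it was 40 and 1 in S phase and all 43 and 0 in mitosis. The medians were -0.76, -0.68 and -0.14 in knockdown replicates 1, 2 and 3 for S phase, and -0.97, -0.87 and -0.18 for mitosis. Over the fits without 1 library, 11 to 40 S phase genes and 7 to 43 mitosis genes fell.

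CDT1, the licensing factor that loads the MCM helicase, was at 76.6, 80.8 and 73.8 CPM in the controls and 25.2, 24.1 and 36 CPM in knockdown replicates 1, 2 and 3. Replicate 3 was the highest of the knockdown libraries and still far below every control (-1.44, SE 0.15). MCM7, a subunit of that helicase, was at 419, 459 and 429 and 196, 191 and 266 CPM (-1.0), MCM2 changed by -0.99, and E2F1, the transcription factor that drives these genes, by -1.24. The mitotic kinase gene AURKB was at 42.2, 46.5 and 42.3 CPM in the controls and 20.5, 20.4 and 21.9 CPM in knockdown replicates 1, 2 and 3, with knockdown libraries close together (-1.06, SE 0.10). CCNB1, the gene of cyclin B1, was at 296, 318 and 304 CPM in the controls and 156, 161 and 219.6 CPM in knockdown replicates 1, 2 and 3, with replicate 3 between the other knockdown libraries and the controls (-0.77). FOXM1, a mitotic transcription factor, changed by -0.85 and UBE2C, a ubiquitin-conjugating enzyme of mitotic exit, by -0.94, and all of these calls held.

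Some proliferation genes went the other way in replicate 3. RRM2, a ribonucleotide reductase subunit gene, was at 138, 138 and 144 CPM in the controls and 100.3, 100.2 and 239.8 CPM in knockdown replicates 1, 2 and 3, and MKI67, which encodes the Ki-67 antigen, at 232, 240.1 and 272 CPM in the controls and 160.1, 175 and 316 CPM in knockdown replicates 1, 2 and 3. In both genes replicates 1 and 2 lay below all controls and replicate 3 above all of them, and neither was called (0.06 and -0.19). These 2 genes were named for contrast after their values were seen.

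Among 29 tested G1 cyclins, kinases and inhibitors, 7 rose and 6 fell. Of the 28 with at least 10 counts in every control, which leave out CDKN2B, 6 rose and 6 fell. CDKN2B, which encodes the kinase inhibitor p15, was at 0.576, 0.301 and 0.494 CPM in the controls and 4.36, 6.29 and 2.76 CPM in knockdown replicates 1, 2 and 3 and rose by 3.26 from a low level. CDK2, the kinase of S phase entry, fell by 0.71, MYC, the growth transcription factor, fell by 0.56 from 273, 264 and 268 to 171, 181 and 194 CPM, and MXD3, a member of its MAX network, fell by 1.05. Of 27 BCL2 family and apoptosis genes, 10 rose and 2 fell (median 0.37; 15 and 3 without replicate 3). BMF, a BH3-only activator of apoptosis, was at 7.42, 7.37 and 8.48 CPM in the controls and 28.6, 26.4 and 26 CPM in knockdown replicates 1, 2 and 3. Its knockdown libraries agreed closely and lay well above the controls (1.80, SE 0.13). MCL1, an antiapoptotic member, rose by 0.65 and XIAP, a caspase inhibitor, by 0.47, so genes with opposite roles in cell death were both higher. The calls of the genes with values in this paragraph held.

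**Figure D2:**
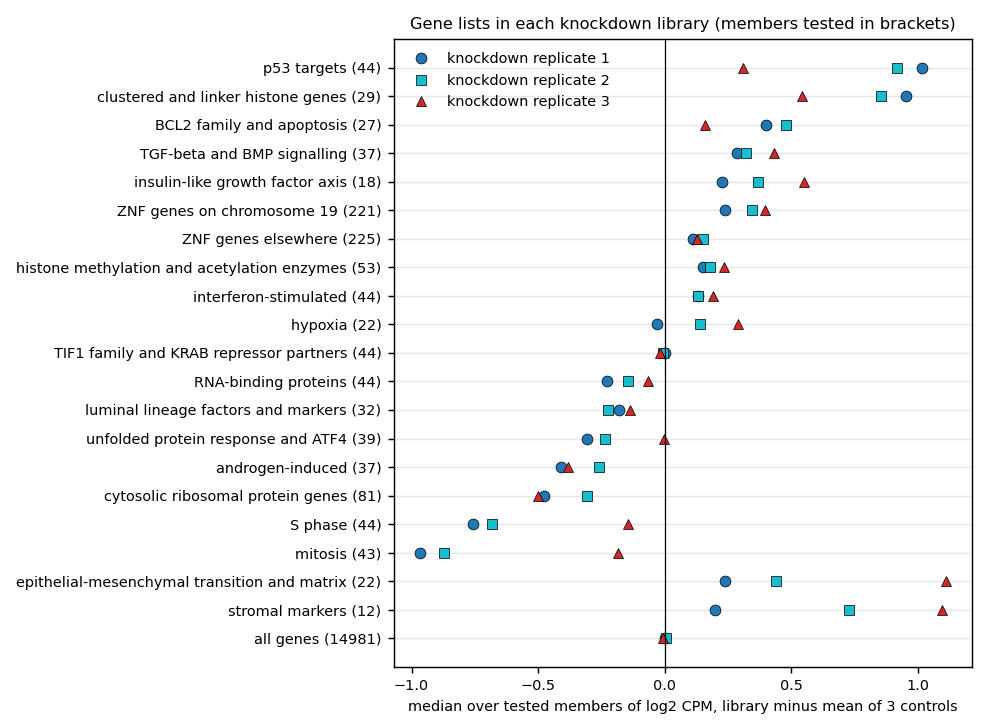
Median over the tested members of each list (number in brackets) of log2 CPM in 1 knockdown library minus the mean of the 3 controls, with 1 point per knockdown replicate. Replicate 3 is nearer to 0 than replicates 1 and 2 for p53 targets (0.31 against 1.01 and 0.92), S phase and mitosis, and as far from 0 for androgen-induced (-0.38) and ribosomal protein genes (-0.50).

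Genes of glucose sensing and insulin-like growth factor signalling included the largest rises. TXNIP, an arrestin-like protein that blocks glucose uptake and is induced through MondoA, was at 6.27, 6.47 and 6.42 CPM in the controls and 173, 117 and 28 CPM in knockdown replicates 1, 2 and 3. All knockdown libraries lay above all controls, with a wide range between replicate 1 and replicate 3 (4.05, SE 0.81, adjusted p = 0.026 by edgeR). The call was lost without control replicate 1, 2 or 3 (adjusted p = 0.0597, 0.0782 and 0.0916) or knockdown replicate 2 (0.0621). ARRDC3, a related arrestin that traffics receptors, was at 89.4, 115 and 91 CPM in the controls and 196, 199.9 and 197 CPM in knockdown replicates 1, 2 and 3, almost the same level in each knockdown library (1.0, held), and ARRDC4 rose by 1.28. MLX, the binding partner of MondoA, fell by 0.73. Of 13 tested members of this axis, 5 rose and 3 fell.

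IGFBP3, which binds insulin-like growth factors outside the cell and is induced by p53, was at 2.23, 2.93 and 3.79 CPM in the controls and 38.1, 37.2 and 23.2 CPM in knockdown replicates 1, 2 and 3. The lowest knockdown library was several times the highest control (3.47, SE 0.25, adjusted p = 0.000112; held). PAPPA, the protease that cleaves binding proteins of this family, was at 0.721, 0.301 and 0.412 CPM in the controls and 2.11, 1.81 and 2.84 CPM in knockdown replicates 1, 2 and 3 (2.20, held). The adaptor gene IRS1 rose by 0.85, the scavenging receptor gene IGF2R by 0.55 and the RNA-binding protein gene IGF2BP2 by 0.61, all held. In the axis as a whole 8 of 18 tested members rose and 4 fell (median 0.36). Of the 17 with at least 10 counts in every control, which leave out PAPPA, 7 rose and 4 fell.

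Glucose transporter and glycolysis genes were called at near the all-gene shares. Of 32 tested, 5 rose (15.6%) and 6 fell (18.75%), against 13.3% each way over all genes (median 0.01). PFKM, the muscle-type phosphofructokinase, was at 362, 405 and 403 CPM in the controls and 147, 144 and 261 CPM in knockdown replicates 1, 2 and 3, and replicate 3 lay between the other knockdown libraries and the controls (-1.08, held). SLC2A1, the basal glucose transporter GLUT1, fell by 0.56, SLC2A4, the insulin-responsive transporter GLUT4, fell by 1.88 from 5.84, 6.62 and 4.12 CPM, and ENO2, the neuronal enolase, rose by 1.33. All of these calls held.

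Some islet and gut endocrine genes that LNCaP cells express were lower. GCG, the proglucagon gene, was at 22.5, 23.7 and 27.1 CPM in the controls and 6.85, 6.69 and 5.68 CPM in knockdown replicates 1, 2 and 3 (-1.93), and RFX6, a winged-helix factor of endocrine pancreas, at 9.58, 9.4 and 8.81 CPM in the controls and 1.96, 1.97 and 2.84 CPM in knockdown replicates 1, 2 and 3 (-2.04, SE 0.22). Both were below the controls in each knockdown library, and both held. Of 13 tested members of this list, 6 fell and 1 rose (median -0.05). Of the 11 that had at least 10 counts in every control, 6 fell and none rose. The riser, HNF4A, a liver and gut nuclear receptor gene, was at 0.36, 0.376 and 0.165 CPM in the controls and 0.828, 1.34 and 1.46 CPM in knockdown replicates 1, 2 and 3 and its call was lost without several single libraries.

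Of 26 tested fatty acid genes 7 fell and 2 rose (median -0.10). ELOVL5, an elongase of polyunsaturated fatty acids, was at 773, 812 and 805 CPM in the controls and 450.4, 456 and 492 CPM in knockdown replicates 1, 2 and 3 (-0.77), ELOVL2 fell by 1.04, and the desaturases FADS1 and FADS2 fell too (-0.70 and -0.47). SREBF1, the gene of the factor that controls lipid synthesis, fell by 0.44. In each of these 5 genes every knockdown library was below every control, and the calls held. Of 28 cholesterol genes 8 rose and 6 fell.

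Interferon-stimulated genes rose in part. Of 44 tested, 12 rose and 2 fell (median 0.20), and without replicate 3 it was 14 and 8, so the excess of rises was smaller there. Over the fits without 1 library 4 to 14 rose. Some members had few counts in the controls and may have passed the low-count filter through the knockdown libraries. Of the 39 with at least 10 counts in every control, 10 rose and 2 fell. Promoters of such genes often hold the interferon-stimulated response element, which interferon regulatory factors and STAT complexes bind. The 120 bases before the RefSeq start site (GRCh38.p14) are shown for the 4 genes of this list that held and have a match to the core GAAANNGAA, and for ISG15, which was not called, to set the same letters beside different responses. Capitals mark the matches, which were searched on both strands.
PARP14: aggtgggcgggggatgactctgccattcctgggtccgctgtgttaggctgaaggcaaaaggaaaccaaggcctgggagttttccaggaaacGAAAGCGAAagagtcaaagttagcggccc
DDX60L: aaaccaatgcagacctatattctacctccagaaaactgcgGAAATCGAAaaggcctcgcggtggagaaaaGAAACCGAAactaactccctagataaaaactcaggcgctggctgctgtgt
ISG20: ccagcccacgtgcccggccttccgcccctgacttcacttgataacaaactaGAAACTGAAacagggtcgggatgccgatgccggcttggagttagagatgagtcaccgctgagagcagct
LGALS3BP: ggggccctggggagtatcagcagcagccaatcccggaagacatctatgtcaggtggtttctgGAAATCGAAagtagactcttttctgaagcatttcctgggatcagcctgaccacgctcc
ISG15: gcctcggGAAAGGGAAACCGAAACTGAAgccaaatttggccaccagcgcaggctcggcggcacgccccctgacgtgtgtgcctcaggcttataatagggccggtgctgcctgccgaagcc
The windows lie at chr3:122680719-122680838 on the plus strand for PARP14, chr4:168480493-168480612 on the minus strand for DDX60L, chr15:88638896-88639015 plus for ISG20, chr17:78979924-78980043 minus for LGALS3BP and chr1:1013377-1013496 plus for ISG15. Counting the start site as 1 and upstream bases as negative, the matches begin at -29 in PARP14, -80 and -50 in DDX60L, -69 in ISG20 and -58 in LGALS3BP. ISG15 has 3 overlapping matches, at -113, -107 and -101.

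PARP14, an ADP-ribosyltransferase of the interferon response, was at 36.5, 36.4 and 37.5 CPM in the controls and 65.8, 64.6 and 54.2 CPM in knockdown replicates 1, 2 and 3 (0.74, SE 0.10). ISG20, an RNA exonuclease, was at 2.81, 2.41 and 2.8 CPM in the controls and 6.25, 7.0 and 6.98 CPM in knockdown replicates 1, 2 and 3 (1.33), and DDX60L, an antiviral helicase-like gene, at 1.3, 1.96 and 1.89 CPM in the controls and 4.06, 3.93 and 6.98 CPM in knockdown replicates 1, 2 and 3 (1.54). LGALS3BP, a secreted glycoprotein gene, was at 13.9, 11.7 and 11.8 CPM in the controls and 20.5, 21.6 and 26.4 CPM in the knockdown (0.87). In all of these genes each knockdown library exceeded each control. ISG15, the ubiquitin-like modifier with the longest run of matches of the 5 windows shown, was at 15, 15 and 15.7 CPM in the controls and 20.8, 18.8 and 13.2 CPM in knockdown replicates 1, 2 and 3, so replicates 1 and 2 lay above the controls and replicate 3 below them (0.21, adjusted p = 0.396).

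The core was present in the 300 bases from 250 before to 50 after the start site in 8.41% of the 10775 tested genes with a promoter entry. In the list it was present in 30 of 37, in 9 of the 10 with an entry that rose and in 21 of the 27 that did not. IFIT2, a translation inhibitor among the strongest interferon responders, was at 0.288, 0.677 and 0.741 CPM in the controls and 3.08, 2.91 and 16.7 CPM in knockdown replicates 1, 2 and 3. It was high in every knockdown library and highest in replicate 3 (3.72, adjusted p = 0.0193, 2.39 without replicate 3), and the call was lost without control replicate 1, 2 or 3 (0.0658, 0.0687 and 0.0619). Its neighbour IFIT1 was at 1.15, 1.35 and 0.494 CPM in the controls and 0.15, 1.02 and 9.58 CPM in the knockdown, above the controls only in replicate 3, and was not called.

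Upstream sensors had nearly as many falls as rises, and antigen presentation genes rose in part. Of 20 nucleic acid sensing and induction genes 3 rose and 2 fell. The genes that rose included IFNAR1, the type I interferon receptor chain, with a log2 fold change of 0.54. Of 23 antigen presentation genes 6 rose and 1 fell (median 0.25). HLA-B rose by 0.65 and HLA-E by 0.50, both class I heavy chains whose reads can be shared with near-identical family members, and CALR, the peptide-loading chaperone, fell by 0.54 from 1826, 1860.0 and 1839 to 1217, 1199 and 1383 CPM. Among 25 NF-kB and inflammatory genes 5 rose and 1 fell, and without replicate 3 it was 6 and 6. Of the 20 with at least 10 counts in every control, 4 rose and 1 fell. LIF, an interleukin 6 family cytokine, was at 1.87, 1.5 and 1.48 CPM in the controls and 9.25, 6.77 and 3.33 CPM in knockdown replicates 1, 2 and 3 (1.99), the cytokine gene IL32 rose by 1.36, BIRC2, a ligase of the pathway, by 0.59, and the costimulatory receptor TNFRSF9 by 3.23 from 0.288, 0.15 and 0.165 CPM. TNFRSF9 was not among the 20 with at least 10 counts in every control and was tested through the knockdown libraries. NFKBIA, the inhibitor that NF-kB itself induces, fell by 0.42. The calls of the genes with values here held.

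Of the targets for which TRIM28 is best known, retroviral loci could be tested at 7 of 17 symbols, and 3 rose and none fell. Of the 6 with at least 10 counts in every control 2 rose, so the count of 3 is a description. ERVE-1 was at 2.16, 1.96 and 1.48 CPM in the controls and 6.55, 6.53 and 4.14 CPM in knockdown replicates 1, 2 and 3 (1.61, SE 0.28), with every knockdown library above every control, and it held. ERV3-1 was at 2.67, 4.21 and 2.55 CPM in the controls and 5.72, 8.73 and 6.09 CPM in knockdown replicates 1, 2 and 3 (1.12), and its call was lost without control replicate 1 or 3 or knockdown replicate 2. ERVK13-1 at 9.58, 7.29 and 8.48 and 8.05, 7.87 and 7.14 CPM and ERVMER34-1 at 17.8, 17.2 and 16.5 and 13.7, 14.4 and 10.6 CPM were not called, the first with overlapping groups and the second with each knockdown library below the controls. Reads from the many other copies of these families carry no gene symbol and were not analysed here.

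Zinc finger genes of the ZNF series, most of which encode KRAB proteins that recruit TRIM28, rose more often than they fell. Of 557 symbols 446 could be tested, and 117 rose and 18 fell (median 0.24; 166 and 51 without replicate 3; 49 to 166 rose over the fits without 1 library). On chromosome 19, where most such clusters lie, 72 of 221 rose and 7 fell (median 0.32), with medians of 0.24, 0.35 and 0.40 in knockdown replicates 1, 2 and 3. Elsewhere 45 of 225 rose and 11 fell (0.18). The 814 tested genes of chromosome 19 outside the series leaned the other way, with 48 up and 173 down (-0.11). Among members with at least 10 counts in every control, 114 of 435 rose and 18 fell.

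ZNF264 was at 40.3, 50.5 and 49.1 CPM in the controls and 84.5, 96.1 and 96.1 CPM in knockdown replicates 1, 2 and 3 (0.98), and ZNF737 at 13, 12.8 and 12.8 CPM in the controls and 27.2, 26.8 and 33 CPM in knockdown replicates 1, 2 and 3 (1.17). ZNF117 was at 5.84, 6.09 and 5.19 CPM in the controls and 16.9, 23.2 and 15 CPM in the knockdown (1.69), ZNF605 changed by 1.16 and ZNF37A by 0.72. In all of these genes the knockdown libraries were above every control and the calls held. ZNF385B, which has no KRAB domain, was at 97.4, 107 and 99.6 CPM in the controls and 47.5, 47.6 and 41.6 CPM in knockdown replicates 1, 2 and 3 and fell by 1.15. Zinc finger genes are paralogs with long shared stretches, so single values carry the uncertainty of how shared reads were counted.

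Tested imprinted and germline genes had nearly as many falls as rises. Of 41 tested imprinted genes 5 rose and 4 fell, and PEG3, a paternally expressed zinc finger gene, was at 9.37, 9.7 and 10.4 CPM in the controls and 5.12, 6.37 and 4.47 CPM in knockdown replicates 1, 2 and 3 and fell by 0.88. Of 67 germline and cancer-testis genes 25 could be tested, and 2 rose and 2 fell. MAGEA12, a member of the MAGE family whose proteins bind TRIM28, rose by 0.49 from 47.2, 45.5 and 42.8 to 65.6, 63.5 and 61.7 CPM, and PAGE1, another cancer-testis antigen gene, fell by 0.36. These 3 calls held. Members too low to be tested stood out in knockdown replicate 3. The imprinted genes IGF2, H19 and DLK1 were at 34.2, 18.7 and 6.66 CPM in replicate 3, against at most 1.73, 1.18 and 0 CPM in the 5 other libraries. LIN28A and LIN28B, RNA-binding proteins of germ and stem cells, were at 21.2 and 7.47 CPM in replicate 3, against at most 0.865 and 0.0787 CPM in the others. These 5 genes were chosen after their values were seen. Among clustered protocadherins 4 of 54 could be tested, and 1 rose.

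Ribosomal protein genes were the list with the most falls in share. Of 81 tested 59 fell and none rose, with a median of -0.43 and medians of -0.48, -0.31 and -0.50 in knockdown replicates 1, 2 and 3. Without replicate 3, 58 fell and 3 rose, and over the fits without 1 library 31 to 64 fell. RPS9, a small subunit protein gene, was at 704, 791 and 698 CPM in the controls and 387, 407 and 466 CPM in knockdown replicates 1, 2 and 3 (-0.80), and RPL10A, of the large subunit, at 881, 966 and 890.4 CPM in the controls and 508, 544 and 599 CPM in knockdown replicates 1, 2 and 3 (-0.73). RPL13A was at 1506, 1686 and 1537 and 1002, 1034 and 1018 CPM (-0.63), RPL12 changed by -0.65 and RPL22L1, a paralog expressed in growing cells, by -0.70. In each, all 3 knockdown libraries lay below all controls, and the calls held. RNA-binding proteins of the hnRNP and SR families leaned the same way, with 14 of 44 down and 6 up. HNRNPA1, a splicing regulator, fell by 0.69 from 1890.0, 2043 and 2048 to 1067, 1161 and 1473 CPM, PTBP1, a repressor of neuronal exons, fell by 0.66 and HNRNPL fell by 0.47.

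Transcript length moved with these results. In the shortest of 5 equal classes of length, 3.98% of genes rose and 18.2% fell (median -0.17), and in the longest 24.9% rose and 6.76% fell (median 0.16). The medians of the shortest class were -0.14, -0.12 and -0.23 in knockdown replicates 1, 2 and 3. Of the ribosomal protein genes 50.6% were in the shortest class. Of the histone methylation and acetylation enzymes 58.5% were in the longest, and of the ZNF genes 22% were in the longest and 2.69% in the shortest. The part of length in these groups was not tested.

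Histone genes went against that lean, since 69.0% of the 29 tested were in the shortest class and 13 rose and 1 fell (median 0.74; 17 and 2 without replicate 3). H4C8, a replication-type histone H4 gene, was at 39.2, 49.9 and 33.7 CPM in the controls and 209, 197 and 123 CPM in knockdown replicates 1, 2 and 3 (2.11), H2AC6 at 20.5, 21.4 and 17 CPM in the controls and 84.8, 89.3 and 50.9 CPM in knockdown replicates 1, 2 and 3 (1.93) and H2BC5 at 14.5, 18.1 and 14.8 CPM in the controls and 48.6, 50.3 and 36.3 CPM in knockdown replicates 1, 2 and 3 (1.51). The knockdown libraries were all above the controls, replicate 3 by the least. Most messages of this kind end in a stem-loop without poly(A), so a poly(A) library holds only their polyadenylated forms, and 24 members had at least 10 counts in every control (11 up, 1 down). H1-10, a linker histone made outside S phase, fell by 0.95. Among 53 enzymes that methylate or acetylate histones, or reverse this, 16 rose and 4 fell (median 0.18). KMT5B, a histone H4 lysine methyltransferase, rose by 0.68 from 88.6, 96.2 and 95 to 159, 156 and 134 CPM, KDM5B, a demethylase, by 0.63, KMT2D, an enhancer methyltransferase, by 0.58 and EED, a Polycomb subunit, by 0.63, and these calls held.

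DICER1, the nuclease that cuts microRNA precursors, rose with little spread, at 102, 86.9 and 105 CPM in the controls and 271, 269 and 226 CPM in knockdown replicates 1, 2 and 3 (1.38, SE 0.11, adjusted p = 0.000112). Each knockdown library held more than any control, and the change was 1.46 without replicate 3. DGCR8, the partner of DROSHA in the first cut, rose by 0.73 from 20.5, 15.4 and 17.4 to 29.8, 30.3 and 28.4 CPM, and IGF2BP3, a let-7 target and RNA-binding protein, by 0.68. Of 18 tested members of this axis 6 rose and 1 fell, and without replicate 3 it was 6 and 6. The medians were -0.06, 0.02 and 0.42 in knockdown replicates 1, 2 and 3.

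TGF-beta and BMP signalling genes rose more often than they fell. Of 37 tested 18 rose and 2 fell (median 0.36; 18 and 3 without replicate 3), with medians of 0.28, 0.32 and 0.43 in replicates 1, 2 and 3. TGFBR2, the type II receptor that binds the ligand, was at 2.09, 3.01 and 4.2 CPM in the controls and 11.1, 12 and 10.7 CPM in knockdown replicates 1, 2 and 3 (1.87). SMAD3, the signal transducer, was at 9.58, 9.33 and 11.9 CPM in the controls and 25.7, 28.4 and 20.7 CPM in knockdown replicates 1, 2 and 3 (1.28), and ID2, an inhibitor of bHLH factors that BMP signalling induces, at 18.7, 18.8 and 16.9 CPM in the controls and 56.5, 53.9 and 34.8 CPM in knockdown replicates 1, 2 and 3 (1.42). ID4 rose by 1.43, while BMP7, a ligand, fell by 0.79 from 91.2, 99.6 and 89.7 to 54.2, 47 and 60.6 CPM. For these 5 genes the groups did not overlap and the calls held. Over the fits without 1 library 9 to 18 of them rose.

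Genes of the unfolded protein response were called down more often than up, with 15 of 39 down and 7 up (median -0.20). Without replicate 3 it was 21 down and 9 up. Their medians were -0.31, -0.23 and -0.001 in knockdown replicates 1, 2 and 3. In replicate 3, 19 members lay above the control mean and 20 below it. MANF, a secreted protein of the endoplasmic reticulum stress response, was at 151, 160.5 and 147 CPM in the controls and 92.7, 87.3 and 105 CPM in knockdown replicates 1, 2 and 3 (-0.69), and SDF2L1, an ER chaperone component, at 32.9, 32 and 32.2 CPM in the controls and 19.2, 20.3 and 19.8 CPM in knockdown replicates 1, 2 and 3 (-0.71). In both, all knockdown libraries were below the controls. VLDLR, a lipoprotein receptor that ATF4 induces, rose by 0.89 and CHAC1, an ATF4 target that degrades glutathione, by 0.66. Of 22 hypoxia genes 7 rose and 2 fell, and without replicate 3 it was 7 and 7. The hypoxia medians were -0.03, 0.14 and 0.29 in knockdown replicates 1, 2 and 3. ERO1A, the disulfide oxidase of the ER, was at 145, 184 and 149.8 CPM in the controls and 311, 336 and 347 CPM in knockdown replicates 1, 2 and 3 (1.06), with P4HA2, a collagen prolyl hydroxylase subunit, up by 0.98, EGLN3, an oxygen sensor, up by 0.83 and EPAS1, which encodes HIF-2 alpha, up by 1.08. PLOD2, a collagen lysyl hydroxylase, was at 286, 363 and 298 and 729, 712 and 675 CPM (1.16). All of the calls named here held.

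Heat shock and immediate early lists had nearly as many falls as rises (5 up and 4 down of 25, and 4 and 4 of 26). HSPB1, the small heat shock protein HSP27, was at 636, 715 and 616 CPM in the controls and 432, 355 and 423 CPM in knockdown replicates 1, 2 and 3 (-0.70), while its relative HSPB8 rose from 2.09, 2.11 and 0.988 to 21.2, 13.2 and 5.52 CPM (2.93). FOSL2, an AP-1 subunit, was at 29.2, 36.3 and 27.3 CPM in the controls and 72.8, 78.7 and 76.7 CPM in knockdown replicates 1, 2 and 3 (1.30), DUSP4, a phosphatase of MAP kinases, fell by 0.81 and JUND fell by 0.84. The groups of all 5 genes did not overlap, and the calls held. Other large rises outside the lists were in KRT80, a type II keratin gene, at 5.91, 7.82 and 5.51 CPM in the controls and 61.4, 52.7 and 25.2 CPM in knockdown replicates 1, 2 and 3 (2.85), PLEKHG1, a guanine nucleotide exchange factor gene, at 3.10, CCR2, a chemokine receptor gene, at 2.95, and the tubulin gene TUBA1A at 2.81.

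**Figure D3:**
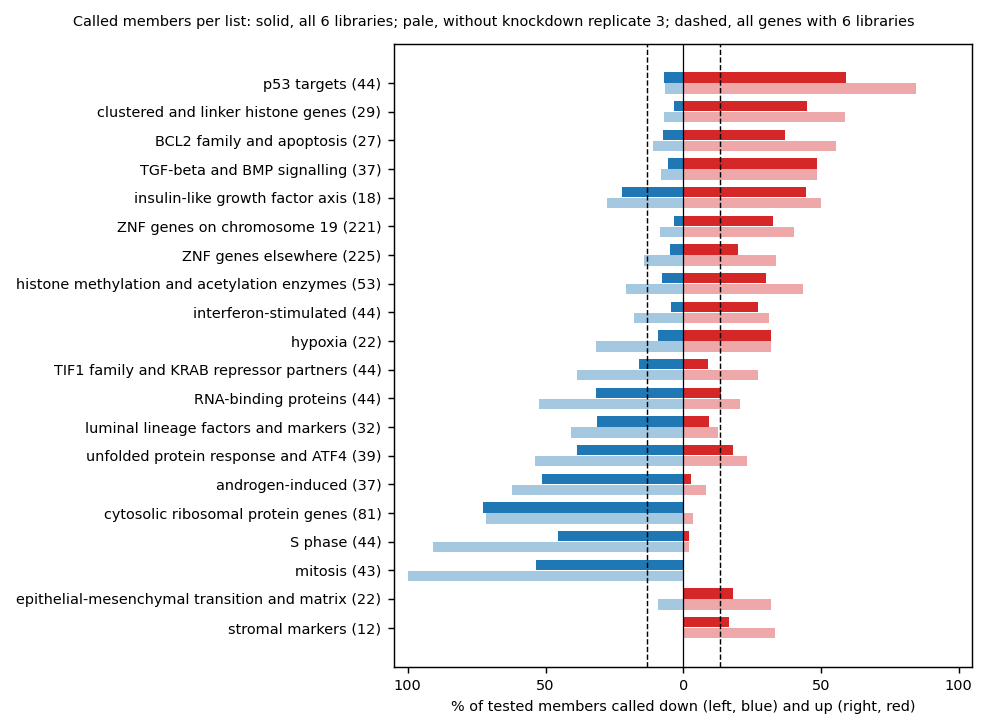
Share of tested members of each list called down (left, blue) and up (right, red), in percent, with all 6 libraries (solid) and without knockdown replicate 3 (pale). Dashed lines mark the shares over all tested genes with 6 libraries (13.3% each way). Without replicate 3 all 43 mitosis genes were called down, and ribosomal protein genes were called down in like number in both fits.

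Stromal and, at a low level, basal markers were highest in knockdown replicate 3. The sum of 5 stromal markers was 27.1 to 31.3 CPM in the controls, 27.9 and 36.8 CPM in knockdown replicates 1 and 2, and 377 CPM in replicate 3. The sum of 3 basal markers was 0.329 to 0.451 CPM in the controls and 0.752, 0.315 and 2.36 CPM in the knockdown. The 5 leukocyte markers, PTPRC, CD3E, CD14 and CD68 among them, stayed under 1 CPM in sum, and endothelial markers were at 5.49 to 7.85 CPM in the controls and 10.7 to 10.9 CPM in the knockdown, nearly all of it VWF. The basal factor TP63 was at 0 in 5 of the 6 libraries, and KRT5 was under 1 CPM in each library. KRT8, a luminal keratin, was at 26.1, 27.8 and 25.9 CPM in the controls and 23, 25.4 and 91.9 CPM in knockdown replicates 1, 2 and 3, several times higher in replicate 3 than in any other library. The part of these markers in the other results of replicate 3 was not tested.

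The genes with the widest gap between replicate 3 and the other knockdown libraries were of matrix and cell surface. COL3A1, a fibrillar collagen chain, was at 2.09, 1.96 and 1.98 CPM in the controls and 2.18, 6.45 and 188 CPM in knockdown replicates 1, 2 and 3. MET, the hepatocyte growth factor receptor, was at 1.58, 1.28 and 1.65 CPM in the controls and 1.35, 5.11 and 101 CPM in knockdown replicates 1, 2 and 3, and VCAN, a large matrix proteoglycan, at 0.865, 0.451 and 0.165 CPM in the controls and 0.301, 2.75 and 49.9 CPM in knockdown replicates 1, 2 and 3. In each the 5 other libraries lay under 7 CPM, with replicate 2 above the controls, and none was called (5.02, SE 2.21 for COL3A1). COL1A2, the matrix protease gene MMP7, the spectrin gene SPTBN1 and the receptor gene GPRC5A showed the same pattern, at 1.73, 4.41 and 86.2, 1.35, 2.75 and 47.8, 1.81, 2.67 and 39.9 and 1.28, 1.65 and 37.3 CPM in the knockdown libraries. Of 60835 symbols, 84 reached at least 5 CPM in replicate 3 and at least 8-fold more than in any other of the 12 libraries. Such genes numbered 1 in control replicate 1 of FOXA1 and 0 in every other library. They made up 0.145% of the counts of replicate 3 and at most 0.00787% in the other 5, only 12 were tested and 1 was called. They include 5 of 35 matrix and mesenchymal genes, 5 of 18 stromal markers and 4 of 22 members of the let-7 axis. Also among them are 3 of 58 imprinted and 2 of 67 germline genes, and these lists share members. A gene well expressed in the other libraries could hardly meet the 8-fold rule, so lists with no such member are not compared.

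**Figure D4:**
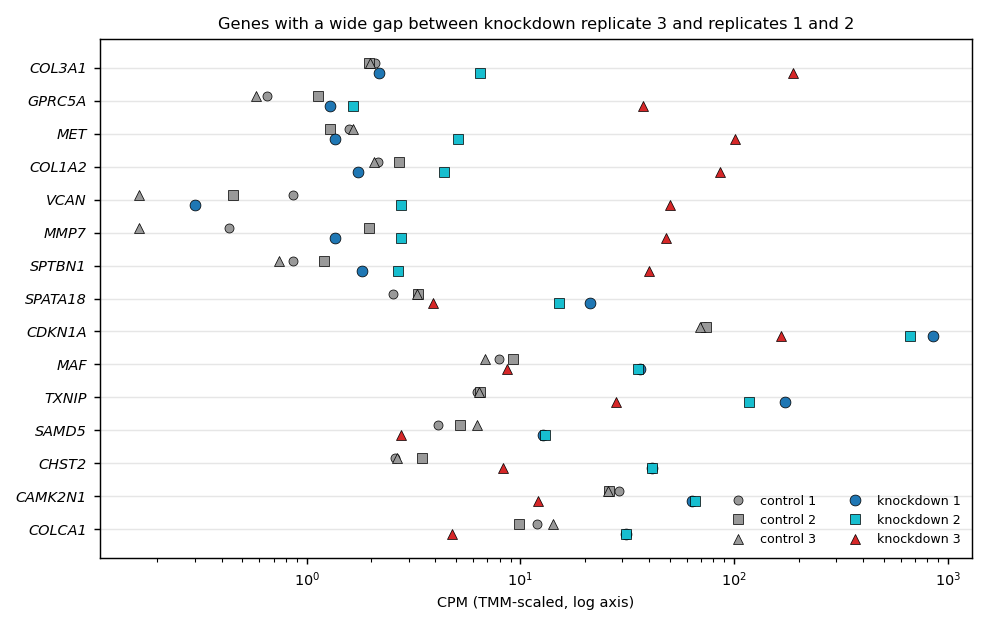
Level in each of the 6 libraries, in CPM on a log axis, of 15 genes with a wide gap between knockdown replicate 3 and replicates 1 and 2 (8 lower and 7 higher in replicate 3). COL3A1, MET and VCAN stand alone at high levels in replicate 3, while COLCA1, CAMK2N1 and MAF are high in replicates 1 and 2 and near the controls or below them in replicate 3.

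On the other side were genes raised in replicates 1 and 2 and much less or not at all in replicate 3. CAMK2N1, an inhibitor of calcium and calmodulin kinase, was at 28.8, 26 and 25.8 CPM in the controls and 63.5, 65.6 and 12 CPM in knockdown replicates 1, 2 and 3, and COLCA1, an epithelial gene of unclear function, at 12, 9.85 and 14.2 CPM in the controls and 31.1, 31.1 and 4.79 CPM in knockdown replicates 1, 2 and 3. Replicates 1 and 2 were above all controls and replicate 3 below all of them, and neither gene was called. MAF, a bZIP factor, was at 7.93, 9.25 and 6.83 CPM in the controls and 36.4, 35.6 and 8.61 CPM in knockdown replicates 1, 2 and 3 (1.75, adjusted p = 0.0558), and SPATA18, a p53-induced gene of mitochondrial quality control, at 2.52, 3.31 and 3.29 CPM in the controls and 21.1, 15.2 and 3.9 CPM in knockdown replicates 1, 2 and 3 (2.14, called with all 6 libraries but lost without any 1 library other than replicate 3). Of 3239 genes called up without replicate 3, 2741 (84.6%) were also above the control mean in it, and the medians were 0.56, 0.54 and 0.35 in replicates 1, 2 and 3. Of 3610 called down, 2992 (82.9%) were below it, with medians of -0.48, -0.49 and -0.29. These genes were chosen on replicates 1 and 2, and all 3 libraries are set against the same controls, so the shares and medians are a description only. On the same side and nearer to the controls than in both other knockdown libraries were 1737 of those called up (53.6%) and 1793 of those called down (49.7%).

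A few matrix and basal genes rose in all 3 knockdown libraries. COL6A1, a chain of collagen VI, was at 38.9, 41.2 and 35.1 CPM in the controls and 67.2, 61.6 and 75.9 CPM in knockdown replicates 1, 2 and 3 (0.83), COL6A2 changed by 0.70, and ITGA5, the fibronectin receptor chain, by 0.75. LAMB3, a laminin chain of basement membrane, was at 0.865, 1.05 and 1.4 CPM in the controls and 3.99, 4.25 and 11.3 CPM in knockdown replicates 1, 2 and 3 (2.55), and TRIM29, a basal epithelial gene, at 0.288, 0.526 and 0.247 CPM in the controls and 1.73, 1.57 and 2.44 CPM in knockdown replicates 1, 2 and 3 (2.40). Each of these genes was higher in every knockdown library than in any control, and the calls held. Of 22 tested mesenchymal and matrix genes 4 rose and none fell, and of 10 tested basal genes 2 rose and none fell, a count that holds genes tested only through the knockdown libraries (1 of the 6 basal genes with 10 counts in every control rose). Among 16 tested neuroendocrine and neural genes 5 rose, ENO2 among them and also REST, the repressor of neuronal genes, at 0.58 (held).

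Whether a gene answered to the TRIM28 knockdown differently from the FOXA1 knockdown was tested as the difference of the 2 changes over all 12 libraries, each knockdown against its own control. The difference was called for 1683 of 15921 genes, 731 (4.59%) with the TRIM28 change the higher and 952 (5.98%) with it the lower, and 755 of these genes were also called in the TRIM28 knockdown. Without knockdown replicate 3 the count was 3528. In the FOXA1 knockdown 7840 of 14953 genes were called, 26.1% up and 26.3% down.

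KLK3 and TMPRSS2 fell in the TRIM28 knockdown and rose in the FOXA1 knockdown. For KLK3 the changes were -1.0 and 0.71 (difference -1.73, adjusted p = 7.9e-06 by edgeR) and for TMPRSS2 -0.87 and 0.28 (difference -1.16). Of 27 fatty acid genes the difference was called higher for 3 and lower for 9 (median difference -0.01), and 3 of those lower are given here. FADS1 changed by -0.70 here and 0.94 there (difference -1.65, adjusted p = 8.53e-08), FADS2 by -0.47 and 1.49, and ELOVL5 by -0.77 and 0.28. SLC45A3 fell in both and less in the TRIM28 knockdown (-1.24 against -1.92), as did INPP4B (-1.56 against -2.91), and both differences were called. Of 38 androgen-induced genes tested for it the difference was called higher for 5 and lower for 14.

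For p53 targets, S phase and mitosis genes the called differences were nearly all in the direction of the TRIM28 change. That change is itself part of each difference. The difference was called higher for 11 of 45 p53 targets and lower for 1. It was called lower for 15 of 44 S phase and 9 of 43 mitosis genes and higher for none. In the FOXA1 knockdown itself, 22 of 45 p53 targets rose and 7 fell (median 0.22). There, 14 of 44 S phase genes rose and 18 fell (median -0.01), and 6 of 43 mitosis genes rose and 22 fell (median -0.16). MDM2 changed by 1.48 and 0.22 (difference 1.24, adjusted p = 0.0353), CYFIP2 by 1.32 and -0.05 (difference 1.36), CDT1 by -1.44 and -0.47 (difference -0.98) and AURKB by -1.06 and -0.09 (difference -0.98). For CDKN1A the difference was 1.23 and was not called (adjusted p = 0.311). RFX6 fell here and was not called in the FOXA1 knockdown (-2.04 and 0.19, difference -2.24, adjusted p = 0.000112). DICER1 rose in both and more here (1.38 and 0.61, difference 0.76).

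Among the largest differences, SULF2, an extracellular sulfatase gene, was at 1.66, 2.48 and 2.63 CPM in the controls and 15.1, 13.1 and 8.28 CPM in knockdown replicates 1, 2 and 3, all knockdown libraries above all controls, and changed by 2.43 here and -0.13 in the FOXA1 knockdown (difference 2.55, adjusted p = 0.000591). FRMPD2, a cell polarity scaffold gene, changed by 1.28 and -1.51. On the other side FAM151A changed by 0.96 here, not called, and 4.89 there, and IL1RN, the interleukin 1 receptor antagonist, by 0.82, not called, and 4.15 (difference -3.34, adjusted p = 5.42e-07). SOX9 rose in both and less here (1.38 and 4.27, difference -2.91), as did CRYAB, a small heat shock protein gene, at 0.576, 1.5 and 1.07 CPM in the controls and 5.94, 6.37 and 2.44 CPM in knockdown replicates 1, 2 and 3 (2.23 and 5.21), and FOSL2 (1.30 and 2.65). For IGFBP3 and KRT80 the changes were 3.47 and 4.06, and 2.85 and 3.87, and neither difference was called.

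**Figure D5:**
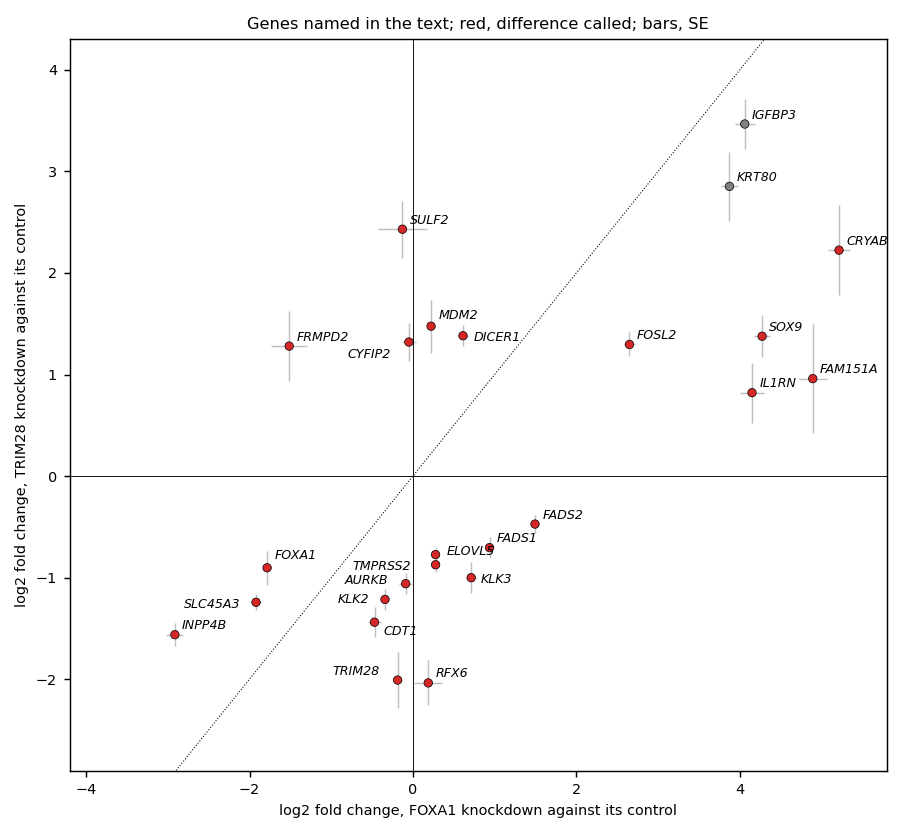
Log2 fold change in the TRIM28 knockdown (vertical axis) against that in the FOXA1 knockdown (horizontal axis) for 25 genes named in the text, each against its own 3 controls, with bars of 1 SE. Red points are genes whose difference was called. KLK3, TMPRSS2, FADS1, FADS2 and ELOVL5 lie to the right of 0 and below it, and IGFBP3 and KRT80 (grey) lie near the diagonal.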

How the data were processed

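Unnormalised read counts for each gene symbol were deposited by the authors in 1 table for the TRIM28 knockdown and its control and 1 table for the FOXA1 pair. The build was GRCh38, per the submitters' processing notes, and aligner, counter and strand setting are not stated in any source here. Overlapping and antisense genes and near-identical copies therefore carry extra uncertainty. The 62710 lines hold 60835 symbols, and the 453 symbols on several lines were kept once. The 4654 symbols without an Ensembl identifier stayed in.

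Counts of the 6 libraries were tested with edgeR 4.0.16 in R 4.3.3, with TMM scaling and a low-count filter by filterByExpr. The filter asked for about 10 counts, scaled to library size, in at least 3 libraries, and 15 in total. A gene could thus be tested through the knockdown libraries alone, and such a gene could hardly be called down. Tests were robust two-sided quasi-likelihood F-tests with Benjamini-Hochberg adjustment over all genes at 0.05. The difference between the knockdowns was a contrast over 12 libraries. Standard errors come from the fitted change and its F value, and log2 CPM per library used a prior count of 2. The 40 gene lists and the genes named were chosen with earlier results of these data known. Named were 9 set genes, up to 15 rises and 15 falls, up to 6 members per list with the smallest p, the 10 smallest p, 8 abundant genes, 6 differences each way, 8 genes on each side for replicate 3, and list members for contrast; some genes that this rule names are not reported here. The series design names biological replicates of one line, and p-values measure the spread between these libraries. How independent the cultures were is not stated. At 12256092 to 14029242 counts per library, genes that reached about 10 counts in fewer than 3 libraries were not tested. Transcript lengths were those of GENCODE release 29 (97.4% of tested genes) and promoters those of RefSeq. Alternatives were other scalings, DESeq2 1.42.0, other filters, a replicate block, a minimum fold change of 1.2, 1 fit of all 12 libraries and leaving out each library. The scripts were tested on simulated counts.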

Additional observations from a re-analysis of the deposited data

Results flagged for a closer look

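The change in the TRIM28 knockdown differed from that in the FOXA1 knockdown for 1683 of 15921 genes, by a test of the difference over all 12 libraries (edgeR, adjusted p under 0.05). Examples are KLK3, at -1.0 and 0.71, FADS1, at -0.70 and 0.94, and RFX6, at -2.04 and 0.19 on the log2 scale. With 3 libraries in a group, the Dixon gap test for a single sample was not applied to any value, and the distance of knockdown replicate 3 from the other libraries is given in the report.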

How the results depend on the processing

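The count of called genes in the TRIM28 knockdown, 3993, was 1625 against a minimum fold change of 1.2 and between 1817 and 6966 over the fits without 1 library. Under other scalings, DESeq2, other filters and the fit of 12 libraries it was between 3920 and 5717. The count of differences between the knockdowns, 1683, was between 1178 and 3528 without 1 library. TRIM28 fell in every fit. The control and knockdown libraries that share a replicate number did not deviate together (correlations 0.0247, -0.0836 and 0.00258), so the numbers were not taken as pairs; with the number as a replicate block 3846 genes were called, 3585 of them also without it, and 1579 differences.

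Of 269 named genes, 234 were called. Leaving out control replicate 1, 2 or 3 ended the call of 42, 40 and 35 of them, knockdown replicate 1 or 2 of 15 and 21, and knockdown replicate 3 of none, while 16 gained one. The sign turned only for genes that were not called. CD8A was at -0.03 without control replicate 3 and -0.10 without knockdown replicate 1 (highest without 1 library 0.49). HHLA3 was at -0.10 without control replicate 3 and -0.07 without knockdown replicate 2 (highest 0.20). TRIM33 was at 0.032 with library size only, 0.01 without knockdown replicate 1 and 0.023 without knockdown replicate 2 (lowest -0.17, without knockdown replicate 3). The cause of these shifts was not tested. Leaving out a library also eased the filter and changed which genes were tested. Depth limits genes near 1 CPM, among them most retroviral, germline and protocadherin symbols.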

Other observations

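Few mitochondrially encoded genes were called: of 15 tested 1 rose and 1 fell. Their medians were -0.001, 0.24 and -0.30 in knockdown replicates 1, 2 and 3, and in replicate 3 13 lay below the control mean. The mitochondrial small ribosomal RNA gene MT-RNR1 was at 1740.0, 1569 and 1753 CPM in the controls and 2433, 2669 and 1666 CPM in knockdown replicates 1, 2 and 3, higher than the controls in replicates 1 and 2 and within their range in replicate 3, and it was not called (0.42, adjusted p = 0.0738 by edgeR). LCP1, an actin-bundling protein known from leukocytes and also made by prostate cancer cells, was at 52.5, 53.5 and 51.9 CPM in the controls and 32.4, 34.6 and 39 CPM in knockdown replicates 1, 2 and 3 and fell by 0.57, the only called gene among the 4 tested of a wider list of leukocyte markers. CHST2, a sulfotransferase gene, was at 2.59, 3.46 and 2.63 CPM in the controls and 41.1, 41.2 and 8.28 CPM in knockdown replicates 1, 2 and 3 (3.38, 3.82 without replicate 3), a call lost without control replicate 1, 2 or 3 (adjusted p = 0.0597, 0.068 and 0.0803).

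SYT4, a synaptotagmin gene of neuronal vesicles, was at 7.13, 4.96 and 6.17 CPM in the controls and 22, 19.5 and 7.47 CPM in knockdown replicates 1, 2 and 3, with replicate 3 close to the highest control, and its call was lost without any 1 library other than replicate 3. ACTA2, the smooth muscle actin gene, was at 1.01, 1.35 and 0.905 CPM in the controls and 2.86, 2.91 and 3.0 CPM in knockdown replicates 1, 2 and 3 and rose by 1.41 with hardly any spread among the knockdown libraries (held). IGFBP5, another binding protein of insulin-like growth factors, was at 1.08, 1.13 and 1.07 CPM in the controls and 5.64, 6.14 and 28 CPM in knockdown replicates 1, 2 and 3, above the controls in every knockdown library and highest in replicate 3 (3.58, 2.41 without it).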
